A study of Homo sapiens with 12 samples.

Results

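Ribosome biogenesis genes encode the nucleolar machinery that makes ribosomal RNA and assembles it with ribosomal proteins, and 46 of them were followed here in INA-6 cells after inhibition of Raf or MEK. INA-6 is an established human myeloma cell line that depends on interleukin-6. The genes were chosen by symbol, from a list covering RNA polymerase I, the snoRNA-guided modification enzymes, nucleolar phosphoproteins and the assembly factors of both ribosomal subunits. The choice was made with earlier results of these data known. A gene was measured where a probe set of the array was paired with its symbol alone, and the brightest such probe set stood for the gene. This gave values for 39 of the 46 genes, among 19775 genes in all. NOP56, DKC1, BOP1 and PPAN were matched only by probe sets that carry several symbols, and GNL3, EBNA1BP2 and DDX18 by none that were named here, so these 7 are not described further.

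The series held 12 Affymetrix HG-U133 Plus 2.0 arrays in 3 groups of 4. INA-6 cells received SB590885, labelled as a Raf inhibitor with B-Raf as its target, or PD325901, labelled as a MEK inhibitor, or DMSO, the solvent of both. The culture medium of all groups was RPMI1640 that held 2 ng/ml interleukin-6 and 10% serum, so the cytokine was present in every group. Each treatment was applied to 300000 cells, and 100 ng of total RNA was amplified for the arrays. Neither the doses nor the treatment times are stated in the sources used. All 3 groups come from 1 cell line. The design text names the arrays of a group as biological replicates. Nothing says whether they came from separate cultures, so the p-values cover the spread between arrays, which may be technical.

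In the nucleolus, RNA polymerase I copies the ribosomal DNA into a long precursor, snoRNA-guided enzymes modify it, and assembly factors cut and fold it into the small and the large subunit. Growing cells spend much of their transcription on this process. Many of the genes are known targets of MYC, and signalling through Raf, MEK and ERK is known to raise the activity of RNA polymerase I.

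The arrays numbered 3 and 4 in each group carry an additional letter R in a second label, whose meaning is not given, and arrays 1 and 2 do not. Same-numbered arrays of different groups deviated together from their group means, and arrays with and without the mark stood apart, so each main count is also given with the array number as a block and within each pair of arrays. Markers of plasma cells, the cell type of myeloma, were mostly high: 10 of 10 lay above 6.92, the median of all values, with a median level of 11.19. CD27 barely exceeded it, at 7.01. Of the other lists, 4 of 9 markers of T and NK cells, 1 of 8 of monocytes, 3 of 6 of fibroblasts, 1 of 4 of erythroid cells and 2 of 6 of endothelium lay above that median. Array medians over all probe sets lay between 6.88 and 6.97. Depth has no counterpart on arrays, and their number limits the precision.

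The 39 genes were well expressed. Their mean log2 levels over the 12 arrays had a median of 10.63, against 7.31 for all genes, and each of the 39 lay above the median of all genes. RRP9, a component of the snoRNP that starts small subunit processing, had the lowest mean level at 7.82, and NPM1, the abundant nucleolar chaperone nucleophosmin, the highest at 14.03. Probe sets differ in their response, so such levels do not order the genes by transcript number.

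Many of the ribosome biogenesis genes were lower in SB590885 cells than in DMSO cells. With SB590885, 17 of the 39 genes fell against DMSO, none rose, and 22 did not pass (limma with Benjamini-Hochberg adjustment over all genes, adjusted p under 0.05). Across all genes tested, 1.69% fell and 1.59% rose by the same rule. The median difference of the 39 genes was -0.37 on the log2 scale, against 0.00 for all genes. At an unadjusted p under 0.05, 31 were lower and 0 higher, against 6.84% and 6.7% of all genes. The difference was below 0 for 38 of the 39, against 47.9% of all genes. Of the 2187 genes with mean levels in the middle range of the 39 (9.96 to 11.56), 63.8% were below 0 and 3.98% fell in limma. For 30 of the 39 genes all 4 SB590885 arrays lay below all 4 DMSO arrays, against 5.76% of all genes. For 37 the SB590885 array was the lower in each of the 4 same-numbered pairs, against 16.9%.

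The falls were modest in size. Among the 17 genes that fell, the level in SB590885 cells was 62.1% of that in DMSO cells for LYAR, the largest fall, and 82.5% for PA2G4, the smallest. In RNA from a whole culture, fewer cells expressing a gene and less of its RNA per cell cannot be told apart, and equal RNA input and RMA scaling hide any change in total RNA. With the array number as a block 31 of the 39 genes fell, against 9.84% of all genes, and all 17 were among them. The count is sensitive to single arrays: it was 5, 6 and 9 without SB590885 array 1, 2 or 3, and 5, 5, 9 and 10 without DMSO array 1, 2, 3 or 4. BYSL, HEATR1, LYAR, NOP16 and UTP20 passed whichever 1 of the 12 arrays was left out, but each failed in some other setting. BYSL did not pass after quantile normalisation (limma adjusted p = 0.173) and HEATR1 with the mean of its probe sets (0.0565). NOP16 did not pass with _at probe sets (0.0602), and LYAR and UTP20 without number 2 of all groups (0.114 and 0.0819). The genes just inside the threshold were WDR3 (limma adjusted p = 0.0462) and GAR1 (0.0488), and those just outside it were POLR1B (0.0504), NOB1 (0.0586) and WDR43 (0.0603).

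**Figure D1:**
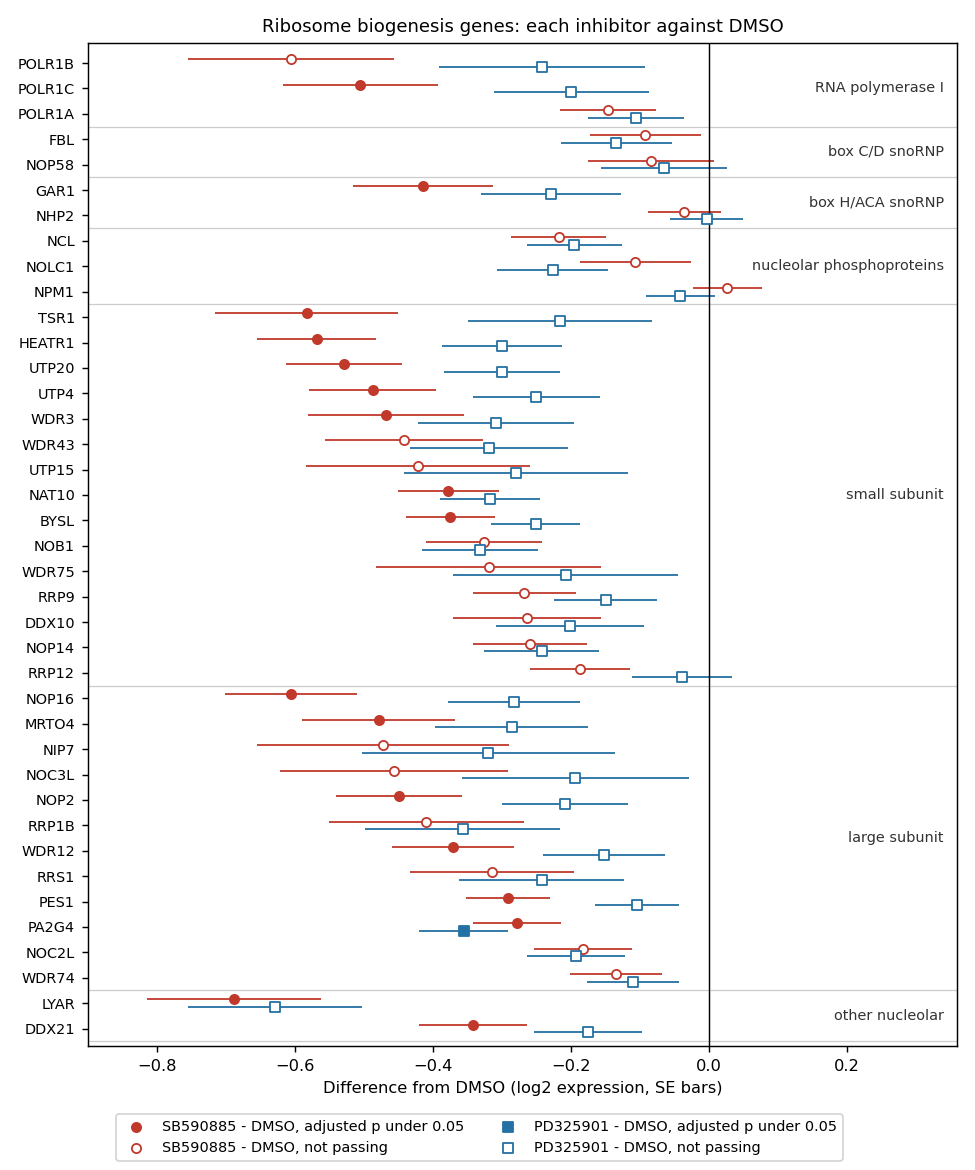
Difference from DMSO on the log2 scale for each of the 39 genes, grouped by role, with SB590885 as circles and PD325901 as squares, bars of 1 SE, and filled symbols for an adjusted p under 0.05 in limma. SB590885 has 17 filled circles, PD325901 has 1 filled square at PA2G4, and apart from NPM1 with SB590885 at 0.03 the symbols lie below 0.

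Among the genes of RNA polymerase I, the enzyme that transcribes the ribosomal RNA precursor, 1 of 3 fell with SB590885 and all 3 fell with the block. POLR1C, a subunit shared with RNA polymerase III, had log2 levels of 9.72, 9.84, 9.81 and 9.80 in SB590885 cells, 10.33, 10.29, 9.96 and 9.82 in PD325901 cells, and 10.43, 10.44, 10.18 and 10.14 in DMSO cells. The SB590885 arrays lay close together below every DMSO array. PD325901 arrays 1 and 2 lay within the DMSO range, array 3 between the ranges and array 4 within the SB590885 range. The difference of SB590885 from DMSO was -0.51 (SE 0.11, limma adjusted p = 0.0322). POLR1B, the second-largest subunit, had the larger difference of -0.61 and narrowly missed the threshold. POLR1A, the largest subunit, differed by -0.15 (adjusted p = 0.404, and 0.0451 with the block).

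The snoRNP proteins, which place methyl groups and pseudouridines on the precursor under the guidance of small nucleolar RNAs, did not move as a unit. GAR1, of the box H/ACA particles that make pseudouridine, had levels of 10.97, 11.05, 11.00 and 11.04 in SB590885 cells, 11.41, 11.42, 11.04 and 10.94 in PD325901 cells, and 11.50, 11.51, 11.39 and 11.32 in DMSO cells. SB590885 lay below DMSO on every array, by -0.41 (SE 0.10, adjusted p = 0.0488). NHP2, of the same particles, differed by -0.04, and none of the box C/D genes passed (0 of 2 by limma, 0 of 2 at an unadjusted p under 0.05). Of these, FBL, the ribose methyltransferase fibrillarin, had 12.74, 12.81, 12.59 and 12.83 in SB590885 cells, 12.87, 12.77, 12.50 and 12.65 in PD325901 cells, and 12.85, 12.85, 12.74 and 12.90 in DMSO cells. The 3 groups overlapped, and the difference of SB590885 from DMSO was -0.09 (SE 0.08, adjusted p = 0.797). NOP58, the other box C/D core protein measured, differed by -0.08.

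The abundant nucleolar phosphoproteins had small differences. None of the 3 passed with SB590885 in limma, and 1, NCL, had an unadjusted p under 0.05. NCL, nucleolin, which binds ribosomal DNA and nascent precursor, had levels of 12.86, 13.04, 12.93 and 13.06 in SB590885 cells, 13.10, 13.11, 12.89 and 12.87 in PD325901 cells, and 13.19, 13.26, 13.11 and 13.19 in DMSO cells. All 4 SB590885 arrays were lower than the DMSO arrays, but narrowly so, with a difference of -0.22 (SE 0.07, adjusted p = 0.134, and 0.0148 with the block). NOLC1, a chaperone of snoRNPs, differed by -0.11. NPM1 differed by 0.03, the one positive value of the 39. After quantile normalisation between arrays the signs of NPM1 and NHP2 turned, so neither has a direction here.

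The small subunit factors, most of which belong to the processome that cuts the precursor, held 7 of the 17 falls among 15 genes. UTP4, HEATR1, WDR3, UTP20, NAT10, BYSL and TSR1 fell with SB590885, all 15 differences were below 0, and 14 of 15 fell with the block. HEATR1, a processome protein also needed for transcription by RNA polymerase I, had 11.00, 11.04, 11.06 and 11.21 in SB590885 cells, 11.50, 11.51, 11.18 and 11.19 in PD325901 cells, and 11.71, 11.74, 11.54 and 11.59 in DMSO cells. Its SB590885 and DMSO arrays were separated by a wide gap, with a difference of -0.57 (SE 0.09, adjusted p = 0.00639). UTP20, a large scaffold of the processome, had 9.61, 9.75, 9.87 and 9.80 in SB590885 cells, 10.20, 9.96, 9.94 and 9.84 in PD325901 cells, and 10.41, 10.23, 10.32 and 10.18 in DMSO cells. It was the steadiest of the 17, with a difference of -0.53 (SE 0.08, adjusted p = 0.00735), and it passed in 26 of the 27 alternative settings.

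UTP4, which like HEATR1, UTP15, WDR43 and WDR75 belongs to the subcomplex that joins the nascent precursor first, had 11.20, 11.31, 11.30 and 11.36 in SB590885 cells, 11.73, 11.67, 11.30 and 11.41 in PD325901 cells, and 11.86, 11.87, 11.66 and 11.72 in DMSO cells. SB590885 lay below DMSO throughout, by -0.49 (SE 0.09, adjusted p = 0.016). Within this subcomplex, UTP15 (-0.42), WDR43 (-0.44) and WDR75 (-0.32) did not pass with SB590885, and each fell with the block (adjusted p = 0.00104, 0.000909 and 0.000936). TSR1, a late factor of the small subunit, had 10.30, 10.24, 10.44 and 10.42 in SB590885 cells, 10.93, 11.00, 10.51 and 10.44 in PD325901 cells, and 11.07, 11.12, 10.83 and 10.72 in DMSO cells. Its difference of -0.58 (SE 0.13, adjusted p = 0.036) was the largest of the small subunit group by the brightest probe sets. The DMSO arrays of TSR1 were themselves spread over 2 levels that followed the R mark. Its other probe sets differed from DMSO by -0.61, -0.05 and -0.30 with SB590885. Averaged over its probe sets, TSR1 differed by -0.39 and missed the threshold (limma adjusted p = 0.0702). It also missed the threshold with _at probe sets only (-0.30, adjusted p = 0.376).

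NAT10, which acetylates ribosomal RNA, had 9.69, 9.71, 9.84 and 9.84 in SB590885 cells, 9.92, 9.97, 9.68 and 9.74 in PD325901 cells, and 10.21, 10.23, 10.08 and 10.07 in DMSO cells. Both inhibitors lay below DMSO on all 4 arrays, SB590885 by -0.38 (SE 0.07, adjusted p = 0.0179) and PD325901 by -0.32 without passing (adjusted p = 0.108). BYSL, bystin, a factor of the late small subunit precursor, had 9.24, 9.33, 9.56 and 9.44 in SB590885 cells, 9.51, 9.57, 9.45 and 9.53 in PD325901 cells, and 9.76, 9.70, 9.83 and 9.78 in DMSO cells. Again no array of either inhibitor reached the DMSO range, and the difference of SB590885 was -0.37 (SE 0.06, adjusted p = 0.0107). The small subunit genes with the smallest differences were RRP12, an export factor, at -0.19 and NOP14 and DDX10 at -0.26 each. For WDR3 the brighter probe set differed by -0.47 (limma adjusted p = 0.0462) and the one of plain _at suffix by -0.05 (adjusted p = 0.917). The latter had a mean level of 6.44, below the median of all values, and can show little of a fall.

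Of the 12 large subunit factors measured, 6 fell with SB590885 and 10 fell with the block. They were PES1, WDR12, NOP2, NOP16, MRTO4 and PA2G4. NOP16, an early assembly factor, had 11.11, 11.30, 11.33 and 11.36 in SB590885 cells, 11.86, 11.66, 11.52 and 11.35 in PD325901 cells, and 11.94, 11.88, 11.88 and 11.82 in DMSO cells. The DMSO arrays were tight and the SB590885 arrays lay far below them, by -0.60 (SE 0.10, adjusted p = 0.0073). NOP2, a ribosomal RNA methyltransferase long known as a proliferation antigen, had 8.74, 8.77, 9.03 and 8.98 in SB590885 cells, 9.24, 9.26, 8.96 and 9.02 in PD325901 cells, and 9.38, 9.47, 9.25 and 9.22 in DMSO cells. Its difference with SB590885 was -0.45 (SE 0.09, adjusted p = 0.0217), with no overlap between the 2 groups.

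PES1 and WDR12 form a complex with BOP1 that is required for processing of the large subunit precursor, and both fell. PES1 had 8.88, 9.06, 9.06 and 9.20 in SB590885 cells, 9.28, 9.27, 9.20 and 9.20 in PD325901 cells, and 9.34, 9.35, 9.29 and 9.40 in DMSO cells. SB590885 was lower by -0.29 (SE 0.06, adjusted p = 0.0248), and for WDR12 by -0.37 (SE 0.09, adjusted p = 0.044). MRTO4, whose yeast counterpart helps to build the ribosomal stalk, was lower by -0.48 (SE 0.11, adjusted p = 0.0386). NIP7 (-0.47), NOC3L (-0.46) and RRP1B (-0.41) had differences as large and did not pass, and their DMSO arrays were spread by the R mark. WDR74 (-0.14) and NOC2L (-0.18) were lowest in size by their brightest probe sets. The other probe sets of WDR74 differed by -0.32 and -0.02, at mean levels of 10.04 and 6.74. That of NOC2L differed by -0.36, at 7.99, so the small size depends on the probe set.

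DDX21 and LYAR, nucleolar proteins that act on ribosomal RNA synthesis and processing, both fell with SB590885. LYAR, a zinc finger protein tied to cell growth, had 11.82, 11.65, 11.65 and 11.68 in SB590885 cells, 12.04, 11.93, 11.54 and 11.53 in PD325901 cells, and 12.67, 12.35, 12.23 and 12.29 in DMSO cells. Both inhibitors lay below DMSO on every array. The difference was -0.69 with SB590885 (SE 0.13, adjusted p = 0.0137), the largest of the 39 genes, and -0.63 with PD325901 (SE 0.13, adjusted p = 0.0535). DDX21, an RNA helicase that senses RNA polymerase I activity, had 12.12, 12.29, 12.27 and 12.31 in SB590885 cells, 12.60, 12.51, 12.29 and 12.26 in PD325901 cells, and 12.65, 12.64, 12.52 and 12.56 in DMSO cells. Here SB590885 lay below DMSO by -0.34 (SE 0.08, adjusted p = 0.036), while PD325901 reached into the DMSO range.

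**Figure D2:**
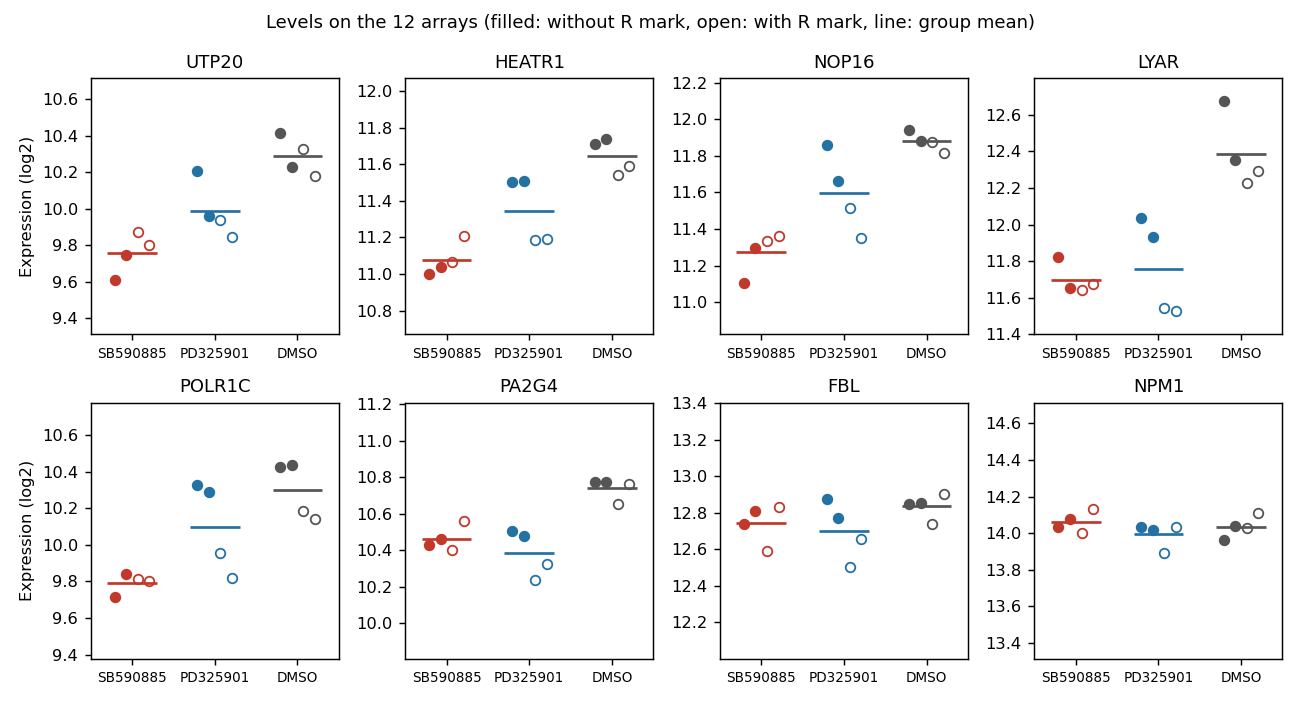
Log2 level on each of the 12 arrays for 8 genes, with SB590885, PD325901 and DMSO from left to right, filled circles for arrays without and open circles for arrays with the R mark, and a line at the group mean. Each panel spans the same height on the log2 scale. For UTP20, HEATR1, NOP16, LYAR, POLR1C and PA2G4 every SB590885 array lies below every DMSO array, and for FBL and NPM1 the groups overlap.

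Promoters were read from RefSeq, whose windows (GRCh38.p14, from 250 bases before to 50 after the start) matched 34 of the 39 genes by symbol. The palindrome CACGTG, the E-box that MYC with its partner MAX can bind, was searched on both strands. It occurred in 15 of the 34 (44.1%), in 36 of 119 further ribosome biogenesis genes (30.3%) and in 8.77% of 27305 symbols. Of the genes that fell with SB590885, 10 of 17 held it, and of those that did not pass, 5 of 17. Of these 5, WDR43, RRP9, NOP14 and NOC3L fell with the array number as a block and FBL did not. The split by the main test thus does not separate genes that responded from genes that did not. The ETS motif CCGGAAG, also searched on both strands, occurred in 14 of 34 (41.2%), in 49 of 119 further ribosome biogenesis genes (41.2%) and in 12.2% of all symbols. It was held by 7 of 17 genes that fell and by 7 of 17 that did not pass. These shares are descriptions, and a match is not a binding site. The 250 bases before the start are shown for the 3 genes that fell, have 1 listed start and hold the E-box within those bases. BYSL, PES1, NOP2 and MRTO4, which also fell and have 1 listed start, hold it in the 50 bases after the start and are not shown. Capitals mark the E-box and, in UTP4, the ETS motif as it reads on this strand, and the motifs do not overlap.
UTP20, chr12:101279855-101280104, + strand: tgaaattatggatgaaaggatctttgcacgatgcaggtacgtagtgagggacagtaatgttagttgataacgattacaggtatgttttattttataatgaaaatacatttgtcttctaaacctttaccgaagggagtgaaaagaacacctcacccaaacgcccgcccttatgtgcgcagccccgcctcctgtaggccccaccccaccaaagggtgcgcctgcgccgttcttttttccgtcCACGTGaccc
UTP4, chr16:69132399-69132648, + strand: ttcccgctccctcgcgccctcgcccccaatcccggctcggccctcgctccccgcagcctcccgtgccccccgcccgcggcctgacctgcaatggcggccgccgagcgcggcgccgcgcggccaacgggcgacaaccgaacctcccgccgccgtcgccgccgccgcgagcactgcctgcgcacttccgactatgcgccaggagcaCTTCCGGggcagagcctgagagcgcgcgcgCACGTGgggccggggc
NAT10, chr11:34105379-34105628, + strand: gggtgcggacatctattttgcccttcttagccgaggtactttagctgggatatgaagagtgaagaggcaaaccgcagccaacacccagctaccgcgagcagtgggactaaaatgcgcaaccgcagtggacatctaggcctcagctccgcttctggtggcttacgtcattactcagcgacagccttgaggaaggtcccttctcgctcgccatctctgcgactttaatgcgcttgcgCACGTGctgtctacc

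In these windows the E-box begins 10 bases before the start in UTP20, 16 in UTP4 and 15 in NAT10, and the ETS motif of UTP4 begins 46 bases before it. UTP20, UTP4 and NAT10 differed from DMSO by -0.53, -0.49 and -0.38 with SB590885, as given above. MYC itself did not pass (limma adjusted p = 0.923 for SB590885 and 0.985 for PD325901 against DMSO). Its level was 12.24 ± 0.12 in SB590885 cells, 12.43 ± 0.24 in PD325901 cells and 12.32 ± 0.17 in DMSO cells (SD, n = 4 arrays each). Without and with the R mark the MYC mean was 12.31 and 12.16 in SB590885 cells, 12.64 and 12.23 in PD325901 cells, and 12.46 and 12.18 in DMSO cells (2 arrays each). These are RNA levels, and MYC protein was not measured on the arrays.

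In PD325901 cells the 39 genes were lower than in DMSO cells in the deposited values, by a smaller median difference than in SB590885 cells, and 1 passed. With PD325901, 1 of the 39 genes fell against DMSO and none rose (limma, adjusted p under 0.05), against 0.506% of all genes lower and 0.086% higher. At an unadjusted p under 0.05, 20 of the 39 were lower and 0 higher, against 4.73% and 2.07% of all genes. All 39 differences were below 0, and 36 after quantile normalisation, against 51.5% of all genes as deposited, with a median of -0.23 against -0.00 for all genes. Of the 2187 genes of similar level, 77.0% were below 0 as deposited and 0.549% fell in limma. The median was -0.15 without PD325901 array 4. For 10 of the 39 genes the PD325901 and DMSO arrays did not overlap (2.68% of all genes), and 33 were lower in all 4 same-numbered pairs (18.5%). With the array number as a block 13 genes fell, against 6.18% of all genes. After quantile normalisation 1 of the 39 fell, LYAR, and the calls over all genes were 176 lower and 173 higher, against 100 lower and 17 higher as deposited.

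The gene that fell with PD325901 was PA2G4, a ribosome-associated protein that shuttles to the nucleolus. It had 10.43, 10.46, 10.40 and 10.56 in SB590885 cells, 10.50, 10.48, 10.24 and 10.33 in PD325901 cells, and 10.78, 10.77, 10.66 and 10.76 in DMSO cells. Both inhibitors lay below all DMSO arrays, PD325901 by -0.36 (SE 0.06, adjusted p = 0.0289) and SB590885 by -0.28 (SE 0.06, adjusted p = 0.0386). The call did not hold without 7 of the 12 arrays, taken 1 at a time, with adjusted p up to 0.114. The 13 genes that fell with the block were 9 of the small subunit, 3 of the large subunit and LYAR. Those of the small subunit were UTP4, UTP15, WDR43, WDR75, HEATR1, UTP20, NAT10, BYSL and NOB1. The first 5 of these belong to the subcomplex that joins the precursor first, and NOL11 of the same subcomplex, measured among the further pathway genes, did not pass (-0.21, block adjusted p = 0.0637). NOB1, the nuclease that makes the final cut of the small subunit RNA, differed by -0.33 with either inhibitor (block adjusted p = 0.00138 with SB590885 and 0.00351 with PD325901). NIP7, RRP1B and PA2G4 made up the large subunit genes. The comparisons of SB590885 and of PD325901 with DMSO share the 4 DMSO arrays, so their likeness is not independent.

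Set against each other, the inhibitors did not differ for any of the 39 genes by the adjusted test. None passed in limma, and at an unadjusted p under 0.05 SB590885 was lower than PD325901 for 10 genes and higher for 0, against 4.31% and 8.54% of all genes. Across all genes 0.855% passed as lower and 1.97% as higher with SB590885. The median difference of SB590885 minus PD325901 was -0.12, with 33 of 39 below 0 (49.8% of all genes), and the groups overlapped for each of the 39 (2.5% of all genes had SB590885 wholly below PD325901). The median was -0.05 without PD325901 array 1, -0.04 without array 2 and -0.19 without array 4. With the block 9 genes were lower with SB590885, against 5.73% of all genes. After quantile normalisation 4 were lower, with 678 of all genes lower and 877 higher, against 169 lower and 389 higher as deposited. The largest difference was that of TSR1, at -0.37 (SE 0.13, adjusted p = 0.216), and its other probe sets differed by -0.32, 0.03 and -0.13. Since the doses and times are not given, these are differences between the treatments as applied, not at matched doses.

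The levels of the 39 genes were uneven between arrays with and without the R mark. In SB590885 cells the median over the 39 genes was 10.35, 10.41, 10.40 and 10.42 on arrays 1 to 4, in PD325901 cells 10.92, 10.96, 10.39 and 10.39, and in DMSO cells 11.07, 11.08, 10.67 and 10.76. SB590885 thus held 1 level on all arrays, while PD325901 was near DMSO on the arrays without the mark and at the level of SB590885 on those with it. The median gene was higher by 0.03 on marked than on unmarked arrays in SB590885 cells, and differed by -0.31 in PD325901 cells and by -0.15 in DMSO cells. The same shift over all genes was 0.01, -0.01 and 0.00. Their median level was 7.31, against 10.63 for the 39 genes, and the shift in genes of similar level was not examined.

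POLR1B shows the pattern in 1 gene. Its levels were 10.28 and 10.40 without and 10.32 and 10.23 with the mark in SB590885 cells, 10.92 and 10.99 without and 10.39 and 10.39 with it in PD325901 cells, and 11.13 and 11.08 without and 10.67 and 10.77 with it in DMSO cells. Within the unmarked arrays the median difference of the 39 genes was -0.44 with SB590885 and -0.14 with PD325901, and within the marked arrays -0.25 and -0.32. The fall was larger without the mark for 34 of the 39 genes with SB590885, and larger with the mark for 38 of the 39 with PD325901. The 39 genes share the same arrays, so these are not separate observations, and the share of all genes was not counted. Over all genes the median difference without and with the mark was 0.00 and 0.00 with SB590885, and 0.00 and -0.02 with PD325901. Without the mark 38 of the 39 genes were below DMSO with SB590885 and 35 with PD325901, against 48.4% and 48.3% of all genes. With the mark all 39 were below DMSO with either inhibitor, against 49.1% of all genes with SB590885 and 55.7% with PD325901. SB590885 was below PD325901 for 38 genes without the mark (51.2% of all genes) and for 11 with it (44.9%).

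Counts moved in the same way. Within the unmarked arrays 32 genes fell with SB590885 (6.81% of all genes) and 0 with PD325901 (0.571%), and within the marked arrays 12 fell with SB590885 (3.23%) and 24 with PD325901 (4.89%). SB590885 was lower than PD325901 for 26 genes without the mark (5.55%), and with the mark for 0 (1.63%), where 1 gene was higher (7.32%). These fits have 2 arrays a group. The dependence on the mark was tested as an interaction in limma, a test added after the data were seen. It passed for 0 of the 39 genes in any of the 3 comparisons, against 0.00506%, 0% and 0.00506% of all genes, with smallest adjusted p of 0.221 for SB590885 against DMSO, 0.787 for PD325901 against DMSO and 0.0635 for SB590885 against PD325901. At an unadjusted p under 0.05 it held for 17, 4 and 33 of the 39 genes, against 6.63%, 5.45% and 11.9% of all genes. What the mark stands for is not given, and its part in these values was not tested further.

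**Figure D3:**
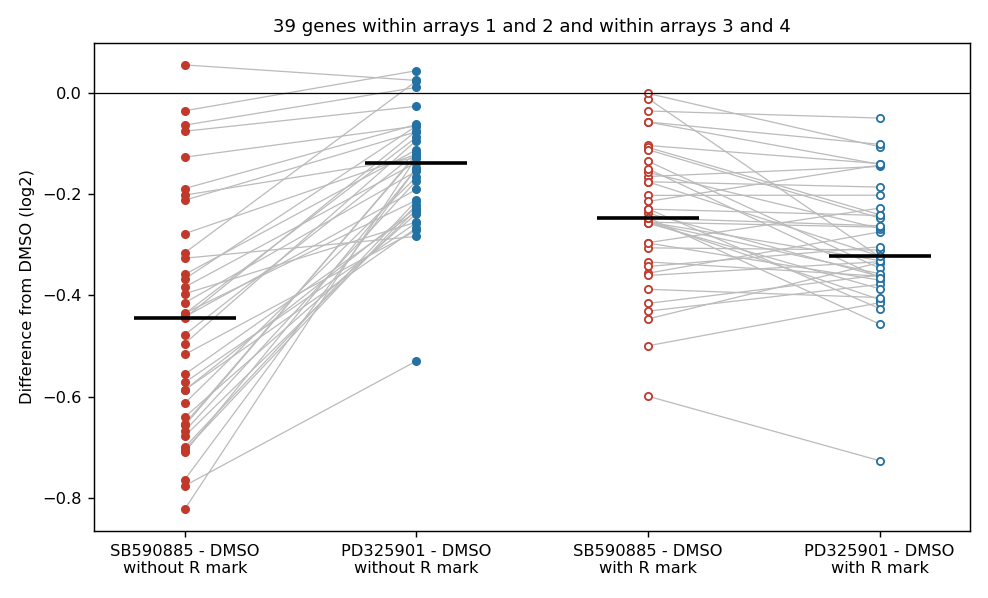
Difference from DMSO on the log2 scale for the 39 genes, computed within arrays 1 and 2 (without the R mark, filled) and within arrays 3 and 4 (with it, open), with lines joining SB590885 and PD325901 values of the same gene and black bars at the medians. The medians are -0.44 and -0.14 without the mark and -0.25 and -0.32 with it.

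Several array properties moved with the groups or the mark. The GAPDH 3' minus 5' control difference was 0.440 ± 0.035 in SB590885 cells, 0.426 ± 0.057 in PD325901 cells and 0.371 ± 0.033 in DMSO cells (SD, n = 4 arrays each), on the log2 scale. The ACTB 3' minus 5' difference averaged 1.79 without and 1.51 with the mark in SB590885 cells, 1.73 and 1.56 in PD325901 cells, and 1.71 and 1.44 in DMSO cells (2 arrays each), and was thus lower with the mark in every group. The SD over all probe sets was 1.52 and 1.53 without and 1.43 and 1.44 with the mark in SB590885 cells, 1.54 and 1.54 against 1.38 and 1.40 in PD325901 cells, and 1.53 and 1.55 against 1.45 and 1.45 in DMSO cells. After quantile normalisation, which gives all arrays 1 spread, the median difference of the 39 genes was -0.28 with SB590885 and -0.15 with PD325901. Among the 2187 genes with mean levels between 9.96 and 11.56, the middle range of the 39, the median difference was -0.07 with SB590885 and -0.10 with PD325901, and 63.8% and 77.0% were below 0. The part of RNA quality in the differences was not tested. Plasma cell markers averaged between 10.74 and 10.95 on SB590885 arrays, 11.07 and 11.54 on PD325901 arrays and 10.99 and 11.39 on DMSO arrays, and 3 of 10 fell with SB590885 against DMSO. Their part in the result was not tested.

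Second probe sets gave a check within the same arrays. Among the 39 genes, 24 had further probe sets with 1 symbol, 41 in all, of which 36 were lower with SB590885 and 33 with PD325901 than with DMSO. Of the 16 with a mean level of at least 9, in 13 genes, all 16 were lower with either inhibitor. They share the RNA and the arrays of the first probe sets. NPM1 was a disagreement: its brightest probe set differed by 0.03 with SB590885 and the others by -0.15 and -0.23. For NOLC1 the others differed by -0.33 and -0.29, against -0.11, and for POLR1B by -0.15, -0.04 and -0.01, against -0.61.

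The rest of the pathway was read from a list of 141 further ribosome biogenesis genes, of which 138 were measured. With SB590885, 21 of them fell and none rose against DMSO, against 1.69% and 1.59% of all genes. The median difference was -0.21, with 124 of 138 below 0, against 47.9% of all genes. With the block 81 fell and 2 rose, against 9.84% and 9.09% of all genes. NLE1, an assembly factor of the large subunit, had the smallest p at -0.39 (adjusted p = 0.00126). It was followed by POLR1G, a subunit of RNA polymerase I, at -0.41 (adjusted p = 0.00658), EXOSC2 of the RNA exosome, which trims precursors, at -0.52 (0.00684), EMG1, a small subunit methyltransferase, at -0.58 (0.00815), DHX37, a helicase of the processome, at -0.34 (0.0115) and AATF, of the small subunit processome, at -0.36 (0.0121). By role, 8 of 45 small subunit factors, 8 of 51 large subunit factors, 3 of 14 exosome and trimming factors, 1 of 17 polymerase factors and 1 of 11 snoRNP factors fell.

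With PD325901, 0 of the 138 passed in limma. At an unadjusted p under 0.05, 41 were lower and 0 higher, against 4.73% and 2.07% of all genes, and 49 fell with the block, against 6.18%. Their median difference was -0.18, with 132 below 0, against 51.5% of all genes. It was -0.10 after quantile normalisation and on arrays without the R mark, and -0.11 without PD325901 array 4. Between the inhibitors PIH1D1 (0.26, adjusted p = 0.0393) and ZNHIT3 (0.38, adjusted p = 0.044), both of which help to assemble box C/D particles, were higher with SB590885 than with PD325901 and none was lower. The 39 genes lay lower than these 138 in both comparisons with DMSO, by medians of -0.37 against -0.21 with SB590885 and -0.23 against -0.18 with PD325901. After quantile normalisation these were -0.28 against -0.16 and -0.15 against -0.10. Both lists were made with earlier results known, so that this order is a description.

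**Figure D4:**
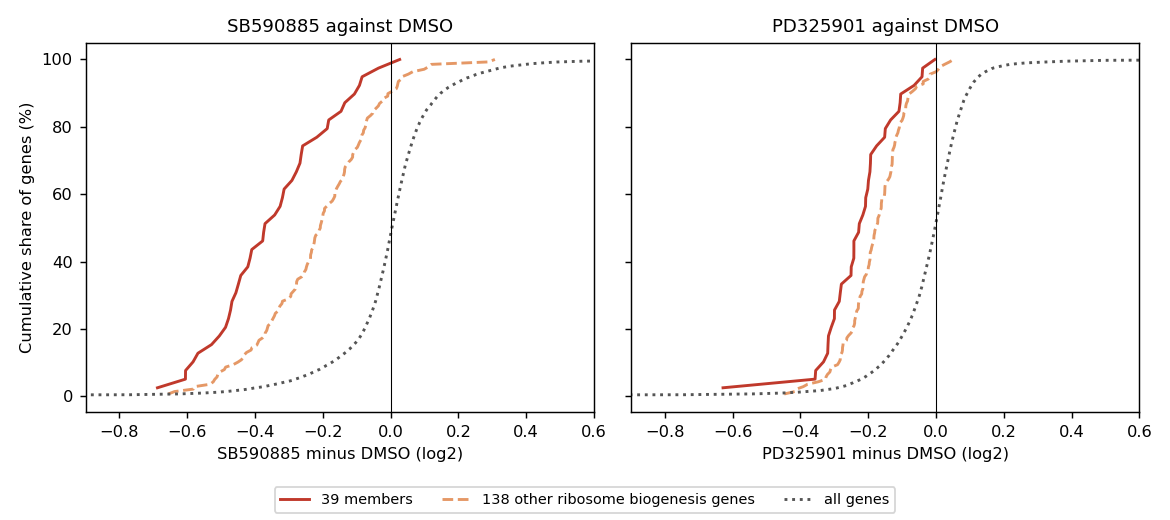
Cumulative share of genes, in percent, against the difference from DMSO on the log2 scale, for SB590885 on the left and PD325901 on the right, with the 39 ribosome biogenesis genes as a solid line, the 138 further pathway genes dashed and all genes dotted. The solid line crosses its median at -0.37 and -0.23, and the dotted line at 0.00 in both panels.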

How the data were processed

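Per the submitters' processing notes, the authors made the deposited log2 expression values per probe set with RMA in R 3.0.1. It is not stated whether the 12 arrays were normalised in 1 run, and their values did not share 1 distribution. Array minima lay between 5.85 and 6.01. Of 54675 probe sets, 62 controls were left out, and 41091 had 1 gene symbol, 1801 several and 11721 none. The brightest probe set over the 12 arrays represented each of 19775 genes, and 10523 genes had more than 1.

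The comparisons used limma 3.58.1 (R 4.3.3), as a group-means model over 12 arrays with empirical Bayes moderation and Benjamini-Hochberg adjustment over all genes, at an adjusted p under 0.05. The code was tested on simulated data. Values after ± are SD.

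Same-numbered arrays were taken as pairs: their deviations from the group means correlated at 0.544 to 0.913 in all 12 pairs of arrays. Where the R mark was shared but the number was not, the coefficients were 0.123 to 0.569 without the mark and 0.564 to 0.646 with it. Between arrays that differed in the mark they were all negative, from -0.718 to -0.443. Deviations from a group mean cancel out within the group, so these negative values follow in part from the positive ones and are no separate evidence. The range for equal numbers alone thus does not separate the number from the mark. Block values stand beside the counts they change. Array values are given for up to 12 genes that passed per comparison, by p, and for 1 gene of each role. Of the further pathway genes, the 6 with the smallest p that passed are named. POLR1B, NPM1 and others outside this rule were named after their values were seen. The members and lists were chosen with earlier results of these data known. Alternatives covered the block, the R mark, normalisation, the probe set, low genes, the moderation, the groups in the fit and single arrays. No genome was used. RefSeq promoters were matched by symbol, and windows with more than 1 listed start were not printed.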

Additional observations from a re-analysis of the deposited data

Results flagged for a closer look

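Of 117 sets of 4 arrays, 1 for each of the 39 genes in each group, 5 held an array far from the other 3 by Dixon's test at the 95% level, and chance flags about 1 in 20. POLR1A had 8.51 on SB590885 array 4, against 8.74 to 8.76 on the other SB590885 arrays. NPM1 had 13.89 on PD325901 array 3, against 14.02 to 14.03 on the others. MRTO4 had 11.50 on PD325901 array 1, against 11.23 to 11.26. NOLC1 had 12.28 on DMSO array 4, against 12.18 to 12.19. PA2G4 had 10.66 on DMSO array 3, against 10.76 to 10.78. The flags fall on 5 different arrays.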

How the results depend on the processing

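The 3 groups of 4 arrays limit every count, and the cause of the shifts below was not tested. No gene that passed changed its sign in any of the 27 settings, and all 18 calls were kept with the replicate block, with low genes left out and with a term for the R mark. For SB590885 against DMSO, where 17 of the 39 genes passed, 31 passed with the block, 30 with a term for the R mark, 32 on arrays without the mark, 10 after centring arrays, 11 with _at probe sets only and 9 with an intensity trend. Leaving out 1 array gave 5 to 20, and leaving out numbers 1 to 4 in turn from all groups 1, 0, 6 and 8. The median stayed between -0.44 and -0.25. For PD325901 against DMSO, where 1 passed, the counts were 13 with the block, 12 with a term for the R mark, 0 without the mark and 24 with it, 0 after centring, with _at probe sets, with a trend and with 2 groups in the fit, and 2 with the mean of probe sets and with low genes left out. Leaving out 1 array gave 0 to 2. For SB590885 against PD325901, where 0 passed, 9 passed with the block, 8 with a term for the R mark, 26 without the mark, 1 with it, 4 after quantile normalisation and 0 to 1 without 1 array, and the median of -0.12 lay between -0.189 and -0.0447 without 1 array and turned to 0.0358 on arrays with the mark.

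For the 138 further genes, SB590885 against DMSO gave 21, and 83 with the block, 78 with a term for the R mark, 77 without the mark, 39 after quantile normalisation, 8 with a trend, 7 to 26 without 1 array and 1, 1, 4 and 15 without number 1, 2, 3 or 4. PD325901 against DMSO gave 0, and 49 with the block, 45 with a term for the R mark, 1 without and 47 with the mark, 1 after centring, with the mean of probe sets or with 2 groups, and 0 to 3 without 1 array, with a median of -0.24 to -0.11 in the last. SB590885 against PD325901 gave 2, and 28 with the block, 24 with a term for the R mark, 47 without and 10 with the mark, 10 after quantile normalisation, 0 after centring, with a trend or with 2 groups, 0 to 3 without 1 array and 0 to 1 without 1 number. Its median of -0.0434 turned to 0.0804 with the mark, 0.0110 without PD325901 replicate 1, 0.0048 without PD325901 replicate 2 and 0.0040 without replicate 1 of all groups, and lay between -0.0991 and 0.0110 without 1 array.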
